A study of Homo sapiens with 8 samples.

Results

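DU145, a human prostate cancer cell line of epithelial origin, was either left untreated (Mock) or given TNF, the inflammatory cytokine tumor necrosis factor α, and the comparison of these 2 conditions is described here gene by gene. It compares 4 of the 8 arrays of the series, namely the 2 arrays titled untreated and the 2 titled TNF, at all 33297 probesets on them. The test drew its estimate of spread from all 8 arrays. The other 4 arrays came from cells given FGF19, a ligand of the receptor FGFR4, at 50 ng/ml together with heparin at 100 µg/ml for 100 min, with TNF added in 2 of them for the last 90 min, as the labels give it. According to the sample labels, serum was withdrawn from all dishes on day 1, treatment followed on day 2, and TNF was present at 50 ng/ml for 90 min. The study's methods name lower doses of both TNF and heparin, and which were used could not be settled. The labels call the arrays of a group biological replicates of the 1 cell line. With only 2 arrays in each group, every difference below is known to no better precision than that number allows.

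TNF binds the receptor encoded by TNFRSF1A, which assembles a complex of adaptors and ubiquitin ligases that activates the kinase IKKβ, encoded by IKBKB. IKKβ marks the IκB inhibitors for destruction, so that NFκB dimers such as RELA with NFKB1 enter the nucleus, while MAP kinase branches act on AP-1 and other early transcription factors. The first wave of transcripts encodes chemokines, adhesion molecules, survival proteins and the inhibitors that later close the pathway.

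The values are linear PLIER signal of Affymetrix Human Gene ST arrays, which has no unit. Array medians were 101.3 and 102.4 in Mock and 99.5 and 100.2 with TNF, and log2 signal correlated at r = 0.980 between the Mock arrays, 0.967 between the TNF arrays and 0.962 to 0.972 between the groups. Without the dimmest 20 percent of probesets, r was 0.9942 between the Mock arrays, 0.9929 between the TNF arrays and 0.9838 to 0.9877 between the groups. The 20th percentile of signal was 31.09. A size of change measured from a signal under it is uncertain. KRT8, KRT18, KRT19, EPCAM and CDH1, epithelial markers, all lay above that percentile, with summed signal of 13110 to 13850 in Mock and 12420 to 12530 with TNF. Of 5 prostate luminal markers only KLK2 and KLK3 could be looked up, and their summed signal was 93.84 to 111.9 over the 4 arrays. Summed fibroblast markers ran from 292.2 to 299.3 in Mock and from 265.4 to 277 with TNF, and summed endothelial markers from 445.5 to 448.7 and from 429.5 to 454.5. Of the white blood cell markers, PTPRC lay below the 20th percentile and CD14 and CD3E above it, with a summed signal of 147.4 to 154.8 in Mock and 138 to 143.9 with TNF. The part of these markers in the results was not tested. The receptor and kinase genes themselves were measured well above that level. TNFRSF1A read 1088 and 1070 in Mock and 974 and 934 with TNF, and IKBKB read 366 and 368 against 404 and 410. RELA read 477 and 476 in Mock and 593 and 604 with TNF, and FGFR4 read 168 and 151 against 151 and 166. None of these 4 genes passed the test (adjusted p = 0.156 for RELA, the smallest).

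TNF mainly raised transcripts. Log2 signal was compared with limma over all 8 arrays of the series, and a probeset is called higher or lower at a Benjamini-Hochberg adjusted p under 0.05. Of the 33297 probesets, 322 were higher (0.967%) and 32 lower (0.0961%). Among the higher ones 181 differed at least 2-fold, 36 at least 4-fold and 12 at least 8-fold, and among the lower ones 13 differed at least 2-fold. Many of the largest of these folds were measured from or to a signal under the 20th percentile, so that their sizes are uncertain. The smallest called rise was 1.447-fold. A fit of the 4 Mock and TNF arrays alone called 97 probesets higher and 6 lower. Of the 322, 219 had a Mock signal above the array median, 75 lay between it and the 20th percentile and 28 below the latter. Without any 1 of the 4 Mock and TNF arrays, 74 of the 322 and 2 of the 32 still passed every time, whereas 187 and 27 passed in none of these 4 fits. The counts of higher and lower probesets were 102 and 5 without Mock replicate 1, 88 and 2 without Mock replicate 2, 124 and 52 without TNF replicate 1, 99 and 28 without TNF replicate 2, and 199 and 17 without either FGF19 + TNF array. For the main genes below, the signal of each array is therefore given. The 2 falls that passed every time were at FAM99A and at a probeset without a symbol. Both lay below the 20th percentile in Mock and with TNF, and their TNF signal was 0.04 or less, so that their sizes are not usable.

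**Figure D1:**
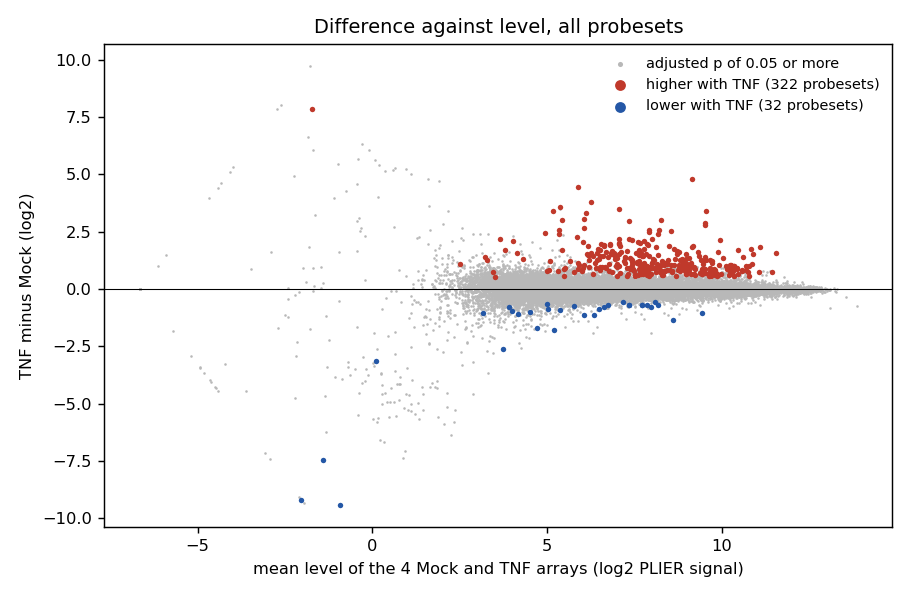
Each point is 1 of 33297 probesets. The x axis gives its mean log2 signal over the 4 Mock and TNF arrays and the y axis its log2 difference, TNF minus Mock, with the 322 called higher in red and the 32 called lower in blue. The red points spread over most of the range of levels, and the widest differences lie at the lowest levels.

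The 242 higher probesets with 1 gene symbol belong to 238 genes. A roll of 70 best known NFκB targets holds 36 of them, and 202 are outside it. Of those 202, 86 stand in one of the 22 pathway lists described below and 116 in none. By the brightest probeset of each gene, 35 of 65 measured best known targets were higher and 0 lower with a median log2 difference of 1.04, beside 1.28% higher and 0.0652% lower over all 18417 genes, whose median difference was -0.0421. The rest of the account is mostly about the 202.

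Among surface and secreted proteins outside the roll, several genes rose from a Mock signal near background. ICAM4, the Landsteiner-Wiener blood group adhesion glycoprotein, read 19.3 and 24.9 in Mock and 203 and 235 with TNF, a 9.97-fold rise (log2 difference 3.32, standard error 0.22, adjusted p = 0.00228). RARRES1, a membrane protein first found as retinoid-induced, read 22.2 and 23.5 in Mock and 173 and 211 with TNF (8.38-fold, adjusted p = 0.000816). Both Mock levels were under the 20th percentile, so that the sizes are uncertain, while every TNF array was far above it. IL23A, the subunit particular to interleukin 23, rose 4.21-fold from 85.0 and 104 to 385 and 409 (adjusted p = 0.0022). BDKRB1, the inducible bradykinin receptor, read 34.7 and 39.6 in Mock and 140 and 136 with TNF. ITGB8, an integrin subunit that binds latent TGFβ, read 48.2 and 46.7 in Mock and 152 and 168 with TNF, and its 3.37-fold rise had an adjusted p of 0.00121. All 3 ended above the array median. LYPD3, a GPI-anchored surface protein of epithelia, rose 3.61-fold from 151 and 138 to 475 and 569. JAG1, a NOTCH ligand, rose 2.53-fold from 93.0 and 94.6 to 232 and 244, and EREG, an EGF receptor ligand, 2.01-fold from 1286 and 1203 to 2547 and 2455. EREG passed in 3 of the 4 fits without 1 Mock or TNF array and the other genes of this paragraph in all 4.

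Enzymes and adaptors made up a second group, most of which stand in none of the lists. SGPP2, a phosphatase of sphingosine-1-phosphate, read 92.5 and 111 in Mock and 535 and 591 with TNF, which is 5.55-fold (log2 difference 2.47, standard error 0.13, adjusted p = 0.00137). G0S2, an inhibitor of adipose triglyceride lipase, read 580 and 497 in Mock and 1677 and 1652 with TNF (3.10-fold). GCH1, the first enzyme of tetrahydrobiopterin synthesis, read 371 and 364 in Mock and 1086 and 1136 with TNF (3.02-fold). In each of the 3 genes the arrays of a group differed by far less than the groups, which follows largely from their having been called. ELOVL7, a fatty acid elongase, read 666 and 630 in Mock and 1623 and 1685 with TNF. AMPD3, an AMP deaminase, rose 2.83-fold, and SLC52A3, a riboflavin transporter, 2.95-fold. TIFA, an adaptor that binds TRAF6, rose 3.34-fold from 211 and 218 to 694 and 741. ITPKC, an inositol trisphosphate kinase, read 108 and 109 in Mock and 360 and 351 with TNF (3.28-fold, adjusted p = 0.0016). MAP3K8, the kinase that couples IKKβ to the ERK branch, rose 3.20-fold, IRAK2, a kinase of the interleukin 1 receptor complex, 2.89-fold and PLK3, a polo-like kinase, 3.66-fold. PPP4R4, a regulatory subunit of protein phosphatase 4, rose 2.94-fold and PPP1R15B, a subunit that directs phosphatase 1 to the translation factor eIF2α, 2.66-fold. SLC52A3 passed in 2 of the 4 fits without 1 Mock or TNF array and ELOVL7 in 1, and the other enzymes and adaptors named here passed in all 4.

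TNF also raised transcription factors outside the NFκB family. GATA6, a factor of endoderm and epithelial lineages, read 125 and 123 in Mock and 622 and 703 with TNF (5.33-fold, log2 difference 2.41, standard error 0.15, adjusted p = 0.00217). STAT5A, which carries cytokine and growth factor signals, read 109 and 101 in Mock and 435 and 466 with TNF (4.30-fold, adjusted p = 0.00118). KLF7, a Krüppel-like factor, read 98.9 and 101 in Mock and 401 and 404 with TNF. NR4A3, an orphan nuclear receptor, rose 3.99-fold from 63.5 and 69.4 to 260.2 and 269. HIVEP2, a large zinc finger protein that binds κB-like sites, rose 3.19-fold, CSRNP1, a nuclear factor induced by AXIN, 3.00-fold, ZFP42, known as a marker of embryonic stem cells, 2.79-fold, KDM6B, which removes methyl groups from lysine 27 of histone H3, 2.74-fold and VDR, the vitamin D receptor, 2.48-fold. In the list of AP-1, EGR and ATF factors 7 of 16 were higher and 0 lower. MAFF rose 2.40-fold, ATF3 2.36-fold, JUNB 2.18-fold, FOSL1 2.07-fold, FOSB 1.86-fold and JUN 1.70-fold. FOS and EGR1, chosen for mention after their values were seen, had log2 differences of 0.34 and 0.23 and did not pass. KDM6B passed in 1 of the 4 fits without 1 Mock or TNF array and VDR in none. Of the AP-1 members named, FOSL1 passed in 1 of the 4 fits without 1 Mock or TNF array and MAFF, ATF3, JUNB, FOSB and JUN in none.

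Called members of the feedback, BMP and SMAD, mRNA decay, growth brake and death receptor lists are given next. NFKBID, an atypical IκB protein, was the 1 inhibitor of NFκB signaling outside the roll that rose. It read 66.1 and 67.6 in Mock and 256 and 263 with TNF (3.88-fold, adjusted p = 0.000866). SPRY4, an inhibitor of receptor tyrosine kinase signaling, rose 3.91-fold from 62.6 and 49.6 to 210 and 225, and TRIB1, a pseudokinase, 2.90-fold. Of 25 MAPK phosphatases and growth factor feedback genes these 2, DUSP10 and DUSP6 were higher and 0 lower. BAMBI, a decoy receptor that dampens BMP and TGFβ signals, read 123 and 118 in Mock and 686 and 768 with TNF (6.03-fold, log2 difference 2.59, standard error 0.09, adjusted p = 0.000522). SMAD7, an inhibitory SMAD, rose 1.69-fold, SMURF2, a ubiquitin ligase of the same pathway, 1.99-fold and SMAD3, a receptor SMAD, 1.48-fold, and with BAMBI they were the 4 of 34 BMP, TGFβ and SMAD genes that were higher. Among mRNA decay factors 3 of 19 were higher. ZC3H12C, a regnase-like RNase, rose 2.37-fold and ZFP36L2 1.55-fold, beside ZFP36. NOCT, nocturnin of the deadenylase family, which is in no list, rose 2.87-fold. The growth brakes CDKN2B, GADD45A and BTG1 rose 2.21-fold, 1.91-fold and 1.56-fold beside CDKN1A, 4 of 24 listed. TNFRSF10B, a TRAIL receptor, rose 1.80-fold, FAS 1.73-fold and PMAIP1, a BH3-only protein, 1.57-fold, 3 of 32 death receptor and pro-apoptotic genes, whose median difference was -0.0515. DUSP10, DUSP6, SMAD7, SMAD3, ZFP36L2, CDKN2B, GADD45A, BTG1 and these 3 passed in none of the fits without 1 Mock or TNF array.

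Rises were seen at several neighbouring genes. Of 231 higher protein-coding genes that could be placed in the order of RefSeq genes (16903 in all), 30 lay next to another higher one, in 14 runs. How many would do so if the 231 were placed at random was not worked out, so that the count only describes. The longest run had 4 genes on chromosome 12, in the cluster of natural killer cell lectin-like receptors. Their KLRC3 probeset read 15.01 and 18.1 in Mock and 92.5 and 104 with TNF (5.95-fold, adjusted p = 0.0014), the KLRC2 probeset 25.4 and 27.7 against 122 and 131, and the KLRC4-KLRK1 probeset 15.6 and 19.6 against 106 and 81.9. KLRC1 was also higher, from 19.99 and 24.8 to 57.2 and 47.8, as were 2 probesets annotated to KLRK1 or KLRC4 together with the readthrough KLRC4-KLRK1, at 10.59-fold and 8.18-fold. All these Mock values lay under the 20th percentile of signal. KLRC1, KLRC2 and KLRC3 are close copies and the readthrough overlaps its neighbours, so that probes may share targets and which of the genes rose is uncertain. The other runs held 2 genes each, among them GBP3 and GBP2 on chromosome 1, IFNAR2 and IL10RB on chromosome 21, both cytokine receptor subunits, and LAMB3, a laminin subunit, next to G0S2 on chromosome 1. KLRC1, IFNAR2, IL10RB and LAMB3 were named for their place in these runs, after their values were seen. These 4 passed in none of the 4 fits without 1 Mock or TNF array and KLRC4-KLRK1 in 2. KLRC2, KLRC3, GBP3, GBP2, G0S2 and LINC03025 passed in all 4. LINC03025, a long noncoding RNA gene on chromosome 9, read 12.3 and 13.2 in Mock and 276 and 277 with TNF, and at 21.65-fold its rise was second to that of CCL20 among probesets with 1 symbol that were called higher, from a Mock level under the 20th percentile.

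Pathway by pathway, the counts of called members were uneven, beside 1.28% of genes called higher and a median log2 difference of -0.0421 over all genes. The 22 lists were drawn up with earlier results of these arrays known, so that their counts describe and do not support a direction. They hold 595 measured genes, of which 121 were higher and 1 lower. By share the NFκB subunits came first with 3 of 5 higher (median log2 difference 0.917), NFKB2 at 2.41-fold, REL at 2.18-fold and NFKB1 at 1.89-fold. The AP-1 list followed, and then 18 of 48 adhesion molecules and cell surface receptors (median 0.279), 8 of 22 inhibitors of NFκB signaling (0.347), 14 of 39 secreted and metabolic effectors (0.43), 19 of 57 other early transcription factors (0.517) and 7 of 22 chemokines (0.341). Of 42 cytokines and secreted growth factors 9 were higher (median 0.253), and of 34 further early kinases, GTPases and signaling genes 9 (0.285). In the receptor complex and kinase cascade it was 4 of 27 (0.161), TRAF1, BIRC2, MAP3K8 and IKBKE, and in the survival genes BCL2A1 alone of 12 (0.0243). The interferon factors and GTPases had 3 of 36 higher, IRF1, GBP2 and GBP3, and a median of 0.15.

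Some lists held no called member, which for lists of this size is near the 1.28% called higher over all genes. All 14 antigen presentation genes had differences above 0, with a median of 0.165, yet none passed. TAP1, the peptide transporter subunit, named after its values were seen, read 795 and 784 in Mock and 1289 and 1332 with TNF (adjusted p = 0.159). SOCS and JAK genes (13 measured, median 0.0877), stress response genes (31, 0.0262) and sterol and fatty acid synthesis genes (20, -0.0295) had no call either, and of 23 YAP, WNT and NOTCH targets 1 was higher, AMOTL2 at 1.69-fold. Among families taken by symbol, 374 of 480 ZNF zinc finger genes (77.9%) lay below 0 with a median of -0.15, 1 higher and 1 lower, beside 11054 of all 18417 genes below 0. The ribosomal protein genes lay below 0 in 59 of 66 (89.4%, median -0.0794) with none called, and of 173 microRNA genes none was called. Quantile and cyclic loess normalization left the ZNF median at -0.137 and -0.119 and the ribosomal protein median at -0.0578 and -0.0623. The median over all genes was then -0.0277 and -0.0156, with 56.7% and 53.8% of genes below 0. The share below 0 became 75.4% and 72.9% for the ZNF genes and 77.3% and 81.8% for the ribosomal protein genes.

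**Figure D2:**
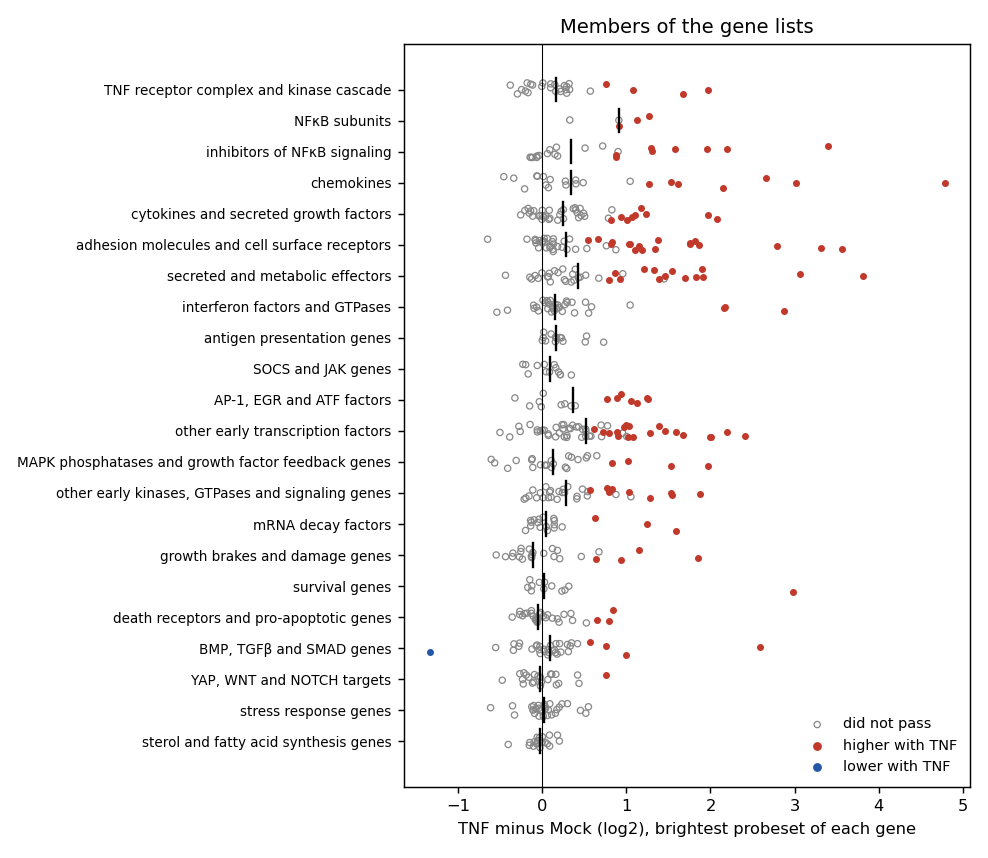
Each point is a gene of the 22 lists, placed on the x axis by its log2 difference, TNF minus Mock, at its brightest probeset, with red for called higher, blue for called lower and open grey for not called. Black bars mark the medians, and the 1 blue point is ID1 at -1.34 in the BMP, TGFβ and SMAD list.

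Falls were few and mostly small. Of the 32 lower probesets 13 had 1 gene symbol, 4 several and 15 none, and at 8 the brighter group lay below the 20th percentile. Of the 13 named genes, FAM99A and OR5AP2 were among those 8. ID1, an inhibitor of basic helix-loop-helix factors and a target of BMP signals, read 652 and 572 in Mock and 240.3 and 243 with TNF. PPP1R3C, which directs phosphatase 1 to glycogen, read 978 and 990.3 in Mock and 452 and 503 with TNF, a fall by 1.05 on the log2 scale (standard error 0.11, adjusted p = 0.0148). In both genes the groups were further apart than the arrays within them, but both were picked because they were called on that contrast. ZNF492, a zinc finger gene, read 33.1 and 32.9 in Mock and 6.48 and 4.36 with TNF, so that its TNF values lay near the floor and the size of the fall is uncertain. ZFP14, another zinc finger gene, read 56.7 and 56.3 against 32.4 and 28.5, and HSD3BP4, a pseudogene of a steroid dehydrogenase, 122 and 120 against 71.6 and 62.2. Of these 5 genes, ZNF492 passed in 2 of the 4 fits without 1 Mock or TNF array and the others in none. FAM99A, which fell from 14.5 and 12.9 to the floor of the arrays, passed in all 4.

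The other fallen genes changed less than 2-fold from moderate levels. PDIK1L, a kinase gene, read 322 and 339 in Mock and 185 and 199 with TNF (log2 difference -0.78, standard error 0.09, adjusted p = 0.0199). PRICKLE1, a planar cell polarity gene, read 279 and 256 against 159 and 166, and TFAP2C, the transcription factor AP-2γ, 290 and 307 against 193 and 171. PHF23, a PHD finger gene, read 356 and 377 in Mock and 216 and 232 with TNF. In each the lower Mock array lay above the higher TNF array. The groups did not overlap at any of the 32 lower probesets, so that this separation comes with the call and adds nothing to it. PAQR7, a membrane progestin receptor, was 1.48-fold lower, and so was BORA, an activator of the mitotic kinase Aurora A. Of the TGFβ family genes beside ID1, named here after their values were seen, ID2 had a log2 difference of -0.34, ID3 of 0.33 and SMAD6 of 0.03, and none passed. The 6 genes of this paragraph that were lower passed in none of the 4 fits without 1 Mock or TNF array.

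**Figure D3:**
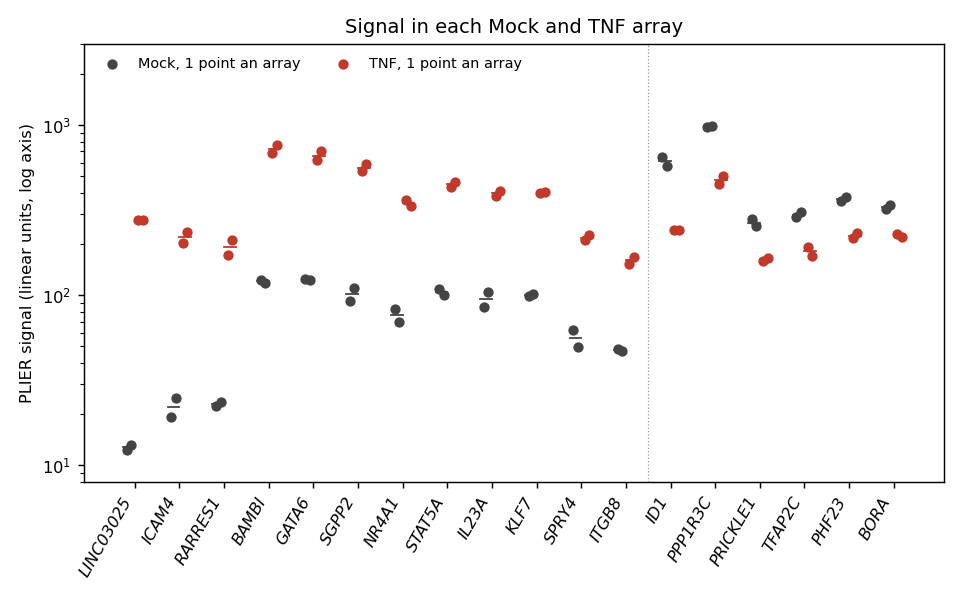
Linear PLIER signal on a log axis in each Mock array (grey) and TNF array (red) for 12 risen genes outside the roll of best known targets, left of the dotted line, and 6 fallen genes, right of it. Points are arrays and short bars are group means, and all 18 genes were chosen among those called.

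Where a gene had several probesets and at least 1 was called, the probesets lay on the same side of 0 in the fit of all arrays. Of 769 genes with 2 or more probesets 7 had at least 1 called, and in all 7 every probeset lay on the same side of 0, which over the 769 genes held for 73.9%. The share among genes with a call fell to 57.1% without TNF replicate 1 and to 66.7% without TNF replicate 2. All probesets were called in 3 genes. CFB, complement factor B, had 3 probesets with log2 differences of 1.93, 1.87 and 1.91, which agree within their standard errors of 0.14 to 0.18. At 8178115 it read 48.2 and 52.7 in Mock and 172 and 215 with TNF, and in the other two the second TNF array was again the higher. UBD, a ubiquitin-like modifier, had 1.03 and 0.91, with 46.6 and 45.4 in Mock against 83.3 and 106 with TNF at its first probeset. GBP2, an interferon-induced GTPase, had 2.16 from 72.3 and 91.6 to 356 and 370 at one probeset and 1.59 from 115 and 102 to 324 and 326 at the other. CFB and UBD lie in the major histocompatibility region, which reference assemblies carry in several versions, and whether their probesets hold the same probes was not tested.

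In the other 4 genes only 1 probeset was called. SLC25A37, a mitochondrial iron importer, had 0.78 and 0.62, and the second missed the threshold at an adjusted p of 0.0822 while reading 1378 and 1219 in Mock and 1943 and 2047 with TNF. RAPGEF1, an exchange factor for RAP1, had 0.80 at a probeset reading 32.2 and 28.1 in Mock and 0.23 at a brighter one reading 262 and 250. SAA2, an acute-phase serum amyloid, had 1.71 at a probeset reading 24.2 and 22.9 in Mock and 78.9 and 75.4 with TNF, and 0.25 at the other, which read 64.8 and 71.2 against 73.2 and 88.5. SAA2 is a near copy of SAA1, so that its probes may read both. FAM99A, a noncoding RNA gene named here because of this disagreement in size, was at 14.5 and 12.9 in Mock and 0.04 and 0.01 with TNF at one probeset, and at 35.7 and 39.4 against 46.0 and 22.7 at the other. Its TNF arrays lay on either side of Mock at the second probeset. Of the fits without 1 Mock or TNF array, GBP2 passed in all 4 at both probesets, CFB in 4, 2 and 1, UBD in 1 and 0, SLC25A37, RAPGEF1 and SAA2 in none, and FAM99A in all 4 at its called probeset. In SLC25A37, RAPGEF1, SAA2 and FAM99A the called probeset had the lower mean Mock signal, though in SLC25A37 only at 1153 against 1298.

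**Figure D4:**
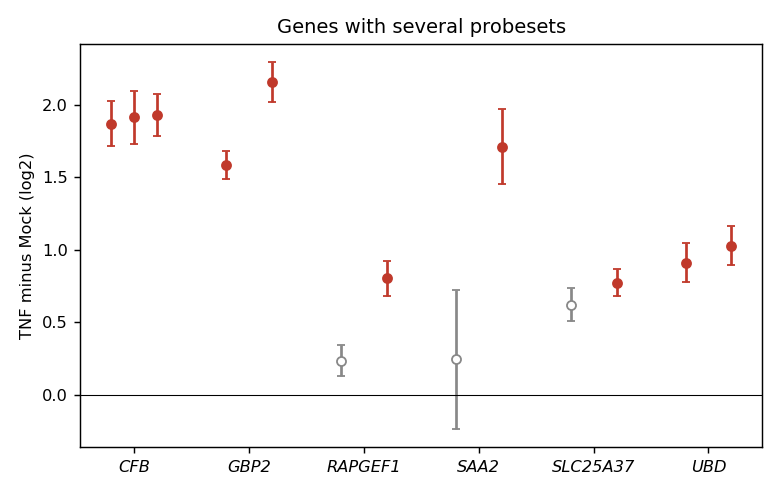
Log2 difference, TNF minus Mock, of each probeset of 6 genes with several probesets, with bars for the standard error from limma. Filled red points are called and open grey points are not. The 3 CFB probesets lie at 1.87 to 1.93, and the pairs of SAA2 and RAPGEF1 lie apart. FAM99A, at the floor of signal, is left out.

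Promoter sequences of the risen genes were searched for the NFkB consensus GGGRNNYYCC, an ungapped motif of G-rich and C-rich ends that NFκB dimers bind. Here R is A or G, Y is C or T and N is any base. RefSeq promoters on GRCh38.p14 (250 bases before to 50 after a gene's start, first entry of a gene) were found for 14239 of the 18417 genes, and both strands were searched. The consensus was present in 12.4% of those, in 50.0% of 30 risen genes of the best known roll and in 17.1% of 158 risen genes outside it. The roll was made of genes already known as NFκB targets, so that its high share is built in and is no finding of these data. The AP-1 motif TGANTCA was in 5.58% of all promoters, 3.33% of the 30 and 10.8% of the 158, and the cAMP response motif TGACGTCA in 2.65%, 3.33% and 2.53%. Neither of these motifs contains the other. None of the 9 promoters found for lower genes held any of the 3. A match is only a run of letters and no sign that a factor was bound there in these cells. To show what such a match looks like in genes less often named as targets, a stretch of 60 bases around the upstream match nearest the start is given for 6 risen genes outside the roll, beside TNFAIP3, chosen after their values were seen, with the match in capitals.
ICAM4: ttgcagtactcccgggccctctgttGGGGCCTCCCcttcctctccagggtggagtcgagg
SGPP2: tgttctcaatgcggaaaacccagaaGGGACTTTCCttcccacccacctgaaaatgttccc
IL23A: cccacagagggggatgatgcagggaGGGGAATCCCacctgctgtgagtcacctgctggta
ITGB8: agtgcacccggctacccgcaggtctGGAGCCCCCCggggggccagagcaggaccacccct
ITPKC: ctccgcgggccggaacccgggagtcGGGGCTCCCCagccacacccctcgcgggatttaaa
MAP3K8: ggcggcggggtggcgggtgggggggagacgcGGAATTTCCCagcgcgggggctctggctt
TNFAIP3: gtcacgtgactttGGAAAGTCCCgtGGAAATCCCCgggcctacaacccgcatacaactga
All 7 are read 5′ to 3′ on the plus strand of GRCh38.p14. The capitals of ICAM4, SGPP2, IL23A and ITPKC fit the consensus as printed. Those of ITGB8, MAP3K8 and TNFAIP3 fit it on the minus strand, as the reverse complement of the letters shown. The ICAM4 window is chr19:10286873-10286932, that of SGPP2 chr2:222423824-222423883, that of IL23A chr12:56338764-56338823 and that of ITGB8 chr7:20330788-20330847. The ITPKC window is chr19:40717028-40717087, that of MAP3K8 chr10:30433961-30434020 and that of TNFAIP3 chr6:137867179-137867238. The matches shown nearest the start begin between 29 bases (MAP3K8) and 139 bases (SGPP2) before it. TNFAIP3 has 2 of them side by side, and SGPP2 and ITPKC each have another upstream match outside the stretch shown. GATA6, BAMBI, RARRES1, STAT5A and KLF7 had no match in this window. CXCL8, ICAM1, SOD2 and NFKB2, which are in the roll, had none either, so that a missing match says little.

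The same genes could be followed in the arrays given FGF19 with heparin, where FGF19 + TNF was set against FGF19. The 2 comparisons share no arrays, although limma pooled their spread. There, 93 probesets (0.279%) were higher. Of the 322 probesets higher with TNF alone, 97.8% had a difference above 0 with FGF19 present and 91 were called, and of the 32 lower ones 84.4% had a difference below 0 and 1 was called, beside 58.98% with the same direction over all probesets. The median difference of the 322 was 1.07 without and 0.638 with FGF19, but they had been selected on the first of these values, so that the medians are not on equal terms. The difference between the comparisons was called at 0 probesets by the interaction term of limma (1715 at an unadjusted p under 0.05, smallest adjusted p 0.293, and 4 calls with a trended and robust prior). NR4A3 had log2 differences of 2.00 and 0.59, CDKN1A of 1.86 and 0.67, ITGB8 of 1.75 and 1.18 and TIFA of 1.74 and 1.52. JUNB had 1.13 and 1.45. Of the falls, TFAP2C had -0.72 and -0.58, ID1 -1.34 and -0.35 and ZNF492 -2.63 and -0.28.

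**Figure D5:**
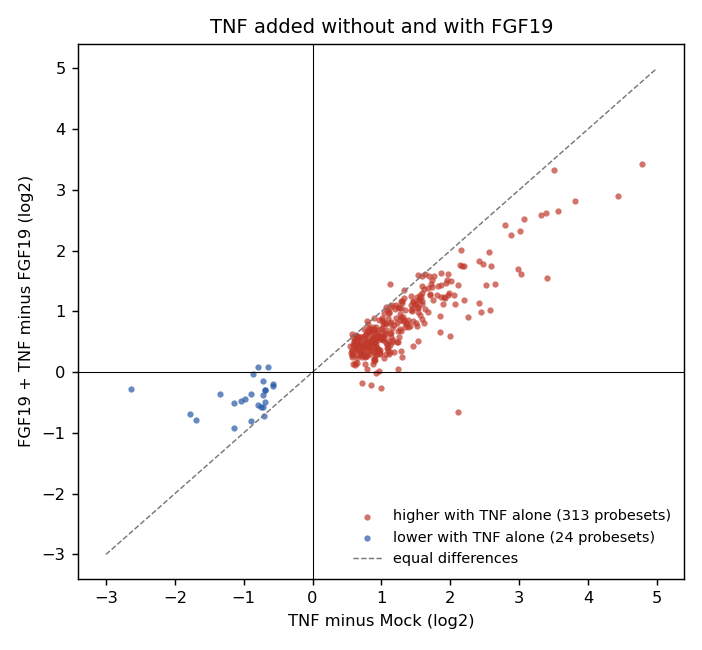
Log2 difference of TNF minus Mock (x) against that of FGF19 + TNF minus FGF19 (y) for the called probesets of the first comparison whose brighter group lay above the 20th percentile, 313 higher (red) and 24 lower (blue). Nearly all red points lie above 0 on the y axis, and most lie below the dashed line of equal differences. The points were selected on the x values.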

How the data were processed

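RNA of DU145 cells was hybridised to 8 Affymetrix Human Gene ST arrays, 2 a group. The authors deposited linear signal intensity for 33297 probesets, made per the labels with Affymetrix Expression Console and PLIER. Neither their versions nor the normalization could be found in those sources. Nothing was scaled again, so a global shift between groups would remain in the differences, and PLIER lets dim probesets fall to 0, which spreads their log2 values. Log2 was taken of the deposited intensity, with 240 zeros set to 0.01 first. All 33297 probesets were fitted by lmFit and eBayes of limma 3.58.1 (R 4.3.3) over the 4 groups and 8 arrays, and TNF minus Mock, FGF19 + TNF minus FGF19 and their interaction were called at a Benjamini-Hochberg adjusted p under 0.05. Folds are 2 to the power of the log2 difference. Symbols came from the platform annotation, updated by Entrez identifier for 19429 of 19460 probesets with 1 symbol (RefSeq, GRCh38.p14). A gene in a list is its brightest probeset.

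The comparison, lists and roll were chosen with earlier results of these data known. Genes named were the 30 largest rises and 30 largest falls among called probesets with 1 symbol, the 30 largest rises in no list, genes with several probesets and 1 or more called, up to 6 called members a list by p, and TNFRSF1A, IKBKB, FGFR4 and RELA, leaving out by name those whose brighter group lay below the 20th percentile. Most others are said to be chosen later. The fit was tested on simulated data. Results were recomputed with each array left out, a replicate block, the 4 arrays alone, another prior (trended and robust) or none, the dimmest 20 percent dropped, 16 added to the signal, and arrays normalized by cyclic loess or by quantiles.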

Additional observations from a re-analysis of the deposited data

How the results depend on the processing

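The counts of called probesets depended on how the spread was estimated more than on scaling. Higher probesets numbered 322 as reported, 342 and 377 after quantile and cyclic loess normalization, 463 with 16 added before log2, 489 without the dimmest 20 percent, 174 without moderation, 559 with a trended and robust prior and 97 from the 4 arrays alone. Lower probesets numbered 32 as reported and 56, 73, 19, 73 and 6 in the last 5 of these. At 2-fold the 181 higher became 104 without moderation and 97 from the 4 arrays, and the 13 lower became 8 without the dimmest 20 percent, 2, 20 and 6 in the last 3. Leaving out 1 array gave 88 (Mock replicate 2) to 259 higher, 2 to 52 lower (52 without TNF replicate 1), 88 to 166 higher and 2 to 52 lower at 2-fold, and 49 to 110 listed genes higher in place of 121. The 4 arrays alone gave 53 listed genes. The share of genes whose several probesets lay on one side ran from 57.1% to 100%, and that of called probesets with the same direction under FGF19, 96.6% as reported, from 89.2% to 98.9%, with 94.7% without the dimmest 20 percent and 93.8% without moderation. Deviations of replicate 1 correlated at 0.011 to 0.327 between groups. The value was 0.027 for Mock with TNF, 0.135 for TNF with FGF19 + TNF and 0.327 for FGF19 with FGF19 + TNF. Whether equal replicate numbers share an effect in the last of these was not tested. With a replicate block 237 were higher and 21 lower. The FGFR4 log2 difference, -0.00586 as reported, turned to 0.008108 and 0.03811 with quantile and cyclic loess normalization and ran from -0.07883 (without Mock replicate 2) to 0.06712 (without Mock replicate 1), with 0.06174 without TNF replicate 1. The cause of these changes was not tested. Of 128 named probesets, 49 to 61 no longer passed without 1 Mock or TNF array, 54 with the 4 arrays alone and 36 without moderation. Probesets below the 20th percentile of signal give no usable size of change. Sizes also differed from the study's own fold changes of TNF against Mock, which it computed in GeneSpring. Those were well below the folds found here for ICAM4, RARRES1, LINC03025, BAMBI and SGPP2, and slightly above for ICAM1 and SOD2. None of the probesets it listed, which had passed its own test, was lowered 2-fold by TNF. The cause of this gap was not tested.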

Other observations

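Unnamed probesets held some of the largest changes. Probeset 8107887, to which the annotation pairs no symbol, read 40.4 and 38.5 in Mock and 454 and 443 with TNF (11.37-fold), and probeset 8149811 read 160 and 151 against 863 and 915 (5.72-fold). Of the falls without a symbol, probeset 7893862 read 97.5 in both Mock arrays and 43.8 and 44.8 with TNF, and probeset 7956269 read 64.6 and 70.3 against 18.5 and 20.8. The genes behind these 4 are not given in the annotation used here, and they were chosen for mention after their values were seen.

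Some called probesets with several symbols carry the same numbers more than once. The 2 probesets of SNORD109A and SNORD109B, small nucleolar RNAs, both read 203 and 208 in Mock and 134 and 122 with TNF, and the 2 of the keratin-associated KRTAP2 genes both read 153 and 148 against 269 and 291, so that both members of each pair are counted among the 354 called probesets. The 2 probesets of ANXA8 and ANXA8L1, annexin genes, differed slightly and had log2 differences of 0.75 each.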
